A study of Mus musculus with 8 samples.

Results

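Klf2, Klf4, Klf6, Klf10, S1pr1, Hmox1 and Nqo1 are 7 genes that endothelial cells are known to regulate with blood flow. They were taken by symbol from the gene list of one sequencing run and matched by gene identifier to the list of the other. All 7 were among the 30406 gene identifiers present in both lists, and they are described here across the cell classes, tissues and diets of the series.

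Laminar shear stress on endothelium is known to act through the kinases MEK5 and ERK5 on MEF2 transcription factors, which switch on the zinc-finger transcription factors KLF2 and KLF4. These factors are known to raise vasodilator and anticoagulant genes such as Nos3 and Thbd, to lower adhesion molecules such as Vcam1, and to raise S1pr1, the receptor through which sphingosine-1-phosphate from blood and lymph supports vessel barrier and stability. Flow is also known to engage NRF2, a transcription factor of the oxidant response whose textbook targets are Hmox1, the enzyme that breaks down haem, and Nqo1, a quinone reductase. Klf6 and Klf10 are relatives of Klf2 and Klf4 that respond to injury and to TGF-beta.

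The series holds 8 single-cell RNA sequencing libraries made with 10x Genomics 3' chemistry. Cells positive for YFP were sorted from mice, all male and ROSA26-eYFP+/+ Cdh5-CreERT2+. Their Cre recombinase is driven by the promoter of Cdh5, the gene of the endothelial junction protein VE-cadherin, and switches on YFP once tamoxifen is given. Mice of every group ate tamoxifen diet for 2 weeks from 6 weeks of age. At 8 weeks they were put on 1 of 2 diets for 12 to 13 weeks, normal chow with 5.8% fat or a diet with 60% fat, called high fat diet here. The mesentery and the epididymal fat pads were the 2 tissues, and the digestion was done with Actinomycin D, an inhibitor of transcription, in the solutions. The groups are mesentery on chow, mesentery on high fat diet, adipose on chow and adipose on high fat diet. Each has 2 libraries, one in run A and one in run B, which the labels describe as a repeat of the experiment. Each library is a pool of 6 mice, so there are no values per animal and n is 2 pools per group.

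The deposited files give UMI counts, which are counts of tagged RNA molecules. Libraries of run A held 3461360 to 6714473 UMIs and those of run B 18829960 to 36779289. After filtering, 22991 cells remained, of which 19537 lay in endothelial clusters, with 689 to 1410 per library in run A and 2597 to 4961 in run B. Pairs of libraries shared 0 to 10 barcodes. Of 33 clusters, 22 carried endothelial markers, and 14 of these were named arterial-like, capillary-like, venous-like or lymphatic-like from marker genes. The 8 others stayed unnamed, and their cells count among all endothelial cells. Of these, clusters 5 (1687 cells) and 12 (657) were led by haemoglobin genes. Cluster 9 (1141 cells) had adipocyte genes and cluster 10 (819) mural genes among the leading ones. In run B, cluster 9 held 355 cells of mesentery and 747 of adipose on chow, against 4 and 1 on high fat diet. Macrophage-like, T cell-like, B cell-like, fibroblast-like, mural-like and adipocyte-like cells were also present, so the sort was not free of other cells. Levels are given as CPM, counts scaled to a total of 1000000 for all UMIs summed over the cells of a class or cluster in 1 library. The 7 genes, and the pathway genes discussed with them, were kept out of the genes used for clustering. The classes were still built from the same cells, so their levels are compared as a description, without a test.

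The 7 genes differ in how many molecules stand behind each value. The totals are over cells that passed the filters on counts, genes and mitochondrial share, before doublets were removed. They were 74705 UMIs of S1pr1, 68516 of Klf2, 41791 of Klf4, 36395 of Klf6, 13195 of Klf10, 6925 of Hmox1 and 2982 of Nqo1. Values of Hmox1 and Nqo1 in a single class therefore often rest on few counts.

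In the mm10 build, as annotated by GENCODE vM21, Klf2 lies at chr8:72319033-72321656 on the plus strand and Klf4 at chr4:55527143-55532466 on the minus strand. Klf6 lies at chr13:5861482-5870394 on the plus strand and Klf10 at chr15:38291463-38300706 on the minus strand. S1pr1 lies at chr3:115710433-115715072 on the minus strand, Hmox1 at chr8:75093621-75100589 on the plus strand and Nqo1 at chr8:107388225-107403206 on the minus strand.

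The promoters of Klf2 and Klf4 are shown because these genes varied together across the cells below. RefSeq's promoter table for GRCm38.p6 had entries for Klf2, Klf4, Klf6 and Nqo1, 4 of the 7 genes. The stretch of Klf2 is chr8:72318812-72319032 on the plus strand, 221 bases that end where the GENCODE gene model begins. That of Klf4 is chr4:55532476-55532725 on the minus strand, the 250 bases before its RefSeq start. Capitals mark GC boxes (GGGCGG on either strand), which bind SP and KLF factors, and in Klf2 also the match to the MEF2 consensus.

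Klf2: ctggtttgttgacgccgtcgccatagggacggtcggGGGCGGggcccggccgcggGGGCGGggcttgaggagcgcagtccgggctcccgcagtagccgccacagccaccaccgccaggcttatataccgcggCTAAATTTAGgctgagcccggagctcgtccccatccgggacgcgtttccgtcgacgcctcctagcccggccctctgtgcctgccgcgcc

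Klf4: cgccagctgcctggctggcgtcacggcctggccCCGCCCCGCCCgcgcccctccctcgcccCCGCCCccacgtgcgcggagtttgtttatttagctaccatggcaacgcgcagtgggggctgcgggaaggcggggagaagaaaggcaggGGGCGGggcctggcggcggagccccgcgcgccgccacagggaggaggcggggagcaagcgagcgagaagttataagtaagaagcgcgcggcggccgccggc

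Klf2 has 2 GC boxes, at 214 and 195 bases before the RefSeq start, and Klf4 has 4, at 217, 212, 189 and 101 bases before it, of which the first pair overlap. The MEF2 match of Klf2 begins 118 bases before the start and reads the same on both strands. A GC box was found in 32.7% and a MEF2 match in 2.9% of the 32851 promoters of the table, searched over 250 bases. Klf4 has no MEF2 match in its window. Klf6 has a match to the core of the antioxidant response element, TGACNNNGC, on the opposite strand at 174 bases before its start, as do 10.2% of all promoters in theirs. Nqo1 has a TATAAA at 29 bases before its start, as do 12.4%. These matches are descriptions of the letters in the windows.

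The levels of Klf2, Klf4 and Klf6 stood apart between the runs, so values are given by run throughout. In all endothelial cells, Klf2 was a median of 4.20-fold higher in run A than in run B over the 4 groups, with a lowest and highest log2 difference of 1.56 and 2.43. Klf4 was 4.12-fold and Klf6 3.40-fold higher in run A, and Nqo1 2.03-fold. S1pr1 went the other way, at 0.36 times its run B level, while Klf10 at 0.87 and Hmox1 at 0.74 lay nearer to 1. The shift was uneven between groups for Klf6 (log2 difference 0.31 to 1.98) and for S1pr1 (-1.64 to -0.27). The median log2 difference of the 6474 genes at 20 CPM or more was -0.10, and 3.49% of them were more than 1 log2 unit higher in run A in every group. In arterial-like cells the median folds were 3.77 for Klf2, 3.71 for Klf4, 2.39 for Klf6, 1.07 for Klf10 and 0.47 for S1pr1.

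Immediate early and heat shock genes, which rise within minutes to hours when tissue is dissociated, moved with the runs as well. All 16 genes of that list were higher in run A in each of the 4 groups of all endothelial cells, by median folds of 3.54 to 269.77, with Fos at 76.85. Their summed level was 12548 to 15905 CPM in run A and 1113 to 1382 CPM in run B. In arterial-like cells the sums were 15975 to 18294 and 1359 to 1779 CPM. Their part in the levels of Klf2, Klf4 and Klf6 was not tested. The runs also differ in their mice and in the software version of their counts, which cannot be told apart from one another.

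**Figure D1:**
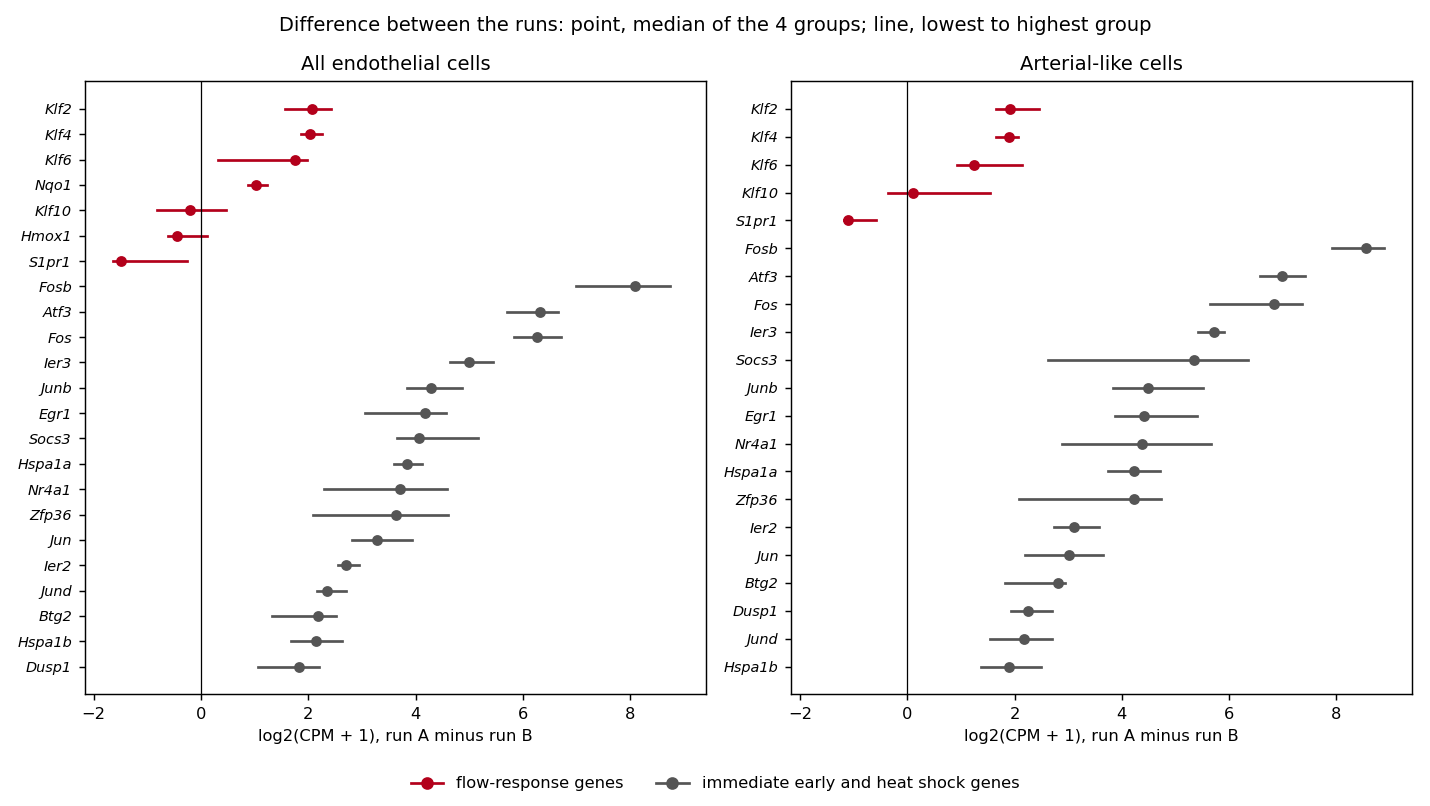
Difference between run A and run B in log2(CPM + 1) for the 7 flow-response genes and the 16 immediate early and heat shock genes, in all endothelial cells (left) and arterial-like cells (right, without Hmox1 and Nqo1, which are under 20 CPM there). Points are the median of the 4 groups and lines run from the lowest to the highest group; Klf2, Klf4 and Klf6 lie to the right of 0 and S1pr1 to the left.

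Klf2 was highest in arterial-like endothelium in nearly every library. In arterial-like cells its level was 3128.9 CPM in mesentery on chow, 3314.1 in mesentery on high fat diet, 2921.1 in adipose on chow and 3066.8 in adipose on high fat diet in run A. In the same order it was 995.2, 1032.5, 532.3 and 690.1 CPM in run B. In capillary-like cells it was 1570.4, 2410.7, 1373.7 and 1612.5 CPM in run A and 440.7, 437.2, 341.6 and 365.5 CPM in run B. Arterial-like cells thus exceeded capillary-like cells in 8 of 8 libraries, by a median of 1.95-fold.

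The arterial level also exceeded the lymphatic-like level in 8 of 8 libraries (median 1.69-fold) and the venous-like level in 7 of 8 (1.68-fold). The exception was adipose on high fat diet in run A, where venous-like cells had 3333.6 CPM. Venous-like, capillary-like and lymphatic-like cells had no fixed order below the arterial level. Capillary-like cells were lower than venous-like cells in 4 of 8 libraries and higher than lymphatic-like cells in 4 of 8.

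Klf4 followed a similar order. Its arterial-like level was 1705.8 CPM in mesentery on chow, 1834.4 in mesentery on high fat diet, 1316.3 in adipose on chow and 1726.8 in adipose on high fat diet in run A, and 405.5, 579.9, 355.8 and 462.5 CPM in run B. Arterial-like cells were higher than capillary-like cells in 8 of 8 libraries (median 1.56-fold), than venous-like cells in 8 of 8 (1.61-fold) and than lymphatic-like cells in 7 of 8 (1.24-fold). In run A lymphatic-like cells came close, with 1088.2 to 1999.6 CPM.

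**Figure D2:**
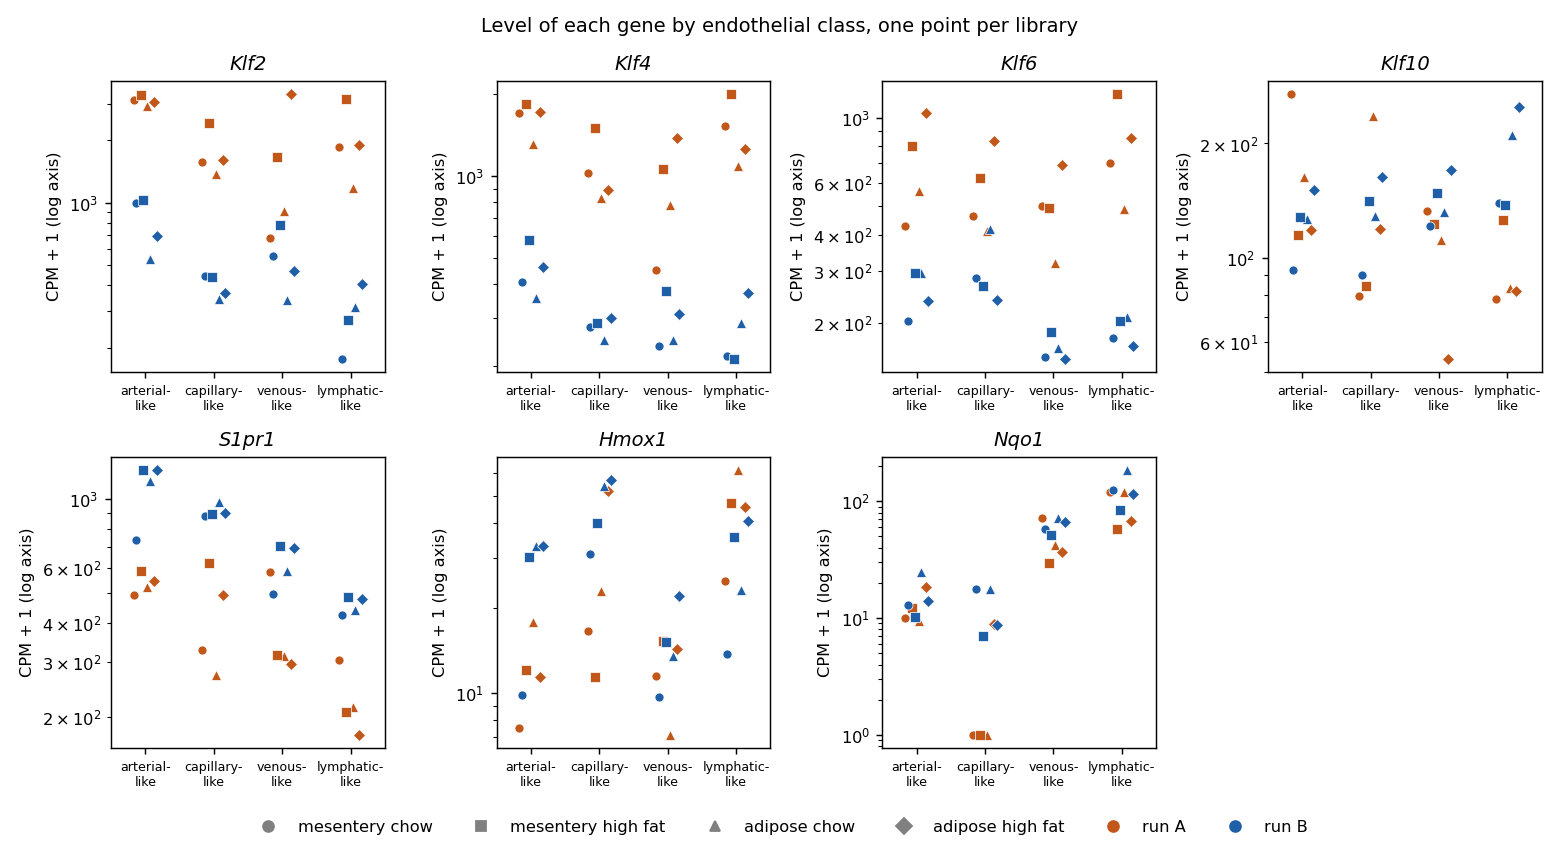
CPM + 1 on a log axis for each of the 7 genes in arterial-like, capillary-like, venous-like and lymphatic-like cells, one point per library, with the group given by the shape and the run by the colour. Klf2 and Klf4 are high in arterial-like cells within each run, and Nqo1 is highest in lymphatic-like cells; points at 1 for Nqo1 are libraries with 0 UMIs.

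Within the arterial-like class, Klf2 and Klf4 were highest in a small cluster in run B. Cluster 28, led by Ssu2, Slc6a6, Nebl and Tgfb2, had at least 20 cells in the run B libraries, 24 to 41 cells each or 3.1 to 6.4% of the class. Its Klf2 level was 1494.6 CPM in mesentery on chow, 1838.2 in mesentery on high fat diet, 1127.9 in adipose on chow and 1490.4 in adipose on high fat diet. Its Klf4 level was 872.3, 1133.2, 1033.3 and 936.5 CPM in the same order. The largest arterial-like cluster, cluster 2, which is led by Nepn, Rbp7 and Hey1, had 477.4 to 806.3 CPM of Klf2 and 333.9 to 482.1 CPM of Klf4 in run B. Cluster 28 exceeded it in 4 of 4 libraries, by a median of 2.32-fold for both genes, and cluster 8, the second largest, in 4 of 4, by 1.37-fold for Klf2 and 2.25-fold for Klf4.

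Cluster 8, led by Gkn3, Igf2 and Cytl1, lay between them for Klf2. It exceeded cluster 2 in 6 of 8 libraries, by a median of 1.33-fold, while Klf4 was higher in 4 of 8. S1pr1 was lower in cluster 8 than in cluster 2 in 8 of 8 libraries, at 0.69 times its level. Cluster 28 had more S1pr1 than either, at 1212.7 to 1810.2 CPM.

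The lymphatic-like class was split in the same genes. Cluster 21, led by Gdf15 and Fibin with Cldn11, Nts and Adm among its 10 leading genes, had 653.5 and 894.5 CPM of Klf2 in the adipose libraries of run B on chow and on high fat diet. In run A it had 2377.4 to 4996.2 CPM. It exceeded cluster 3, the largest lymphatic-like cluster, which is led by Reln and Ccl21a and carries Lyve1, in 6 of 6 libraries for Klf2 (median 2.41-fold) and for Klf4 (2.07-fold). High Klf2 was not particular to cluster 21. Cluster 20, also lymphatic-like, exceeded cluster 3 in Klf2 in 6 of 7 libraries (1.46-fold) and had 1550.1 to 5601.1 CPM in run A. Cluster 21 exceeded cluster 20 in 4 of 5 libraries for Klf2 (1.53-fold) and 5 of 5 for Klf4 (2.09-fold). S1pr1 moved the other way. Its level in cluster 21 was 33.0 to 85.7 CPM in run A and 198.8 to 220.3 in run B, lower than in cluster 3 in 6 of 6 libraries at 0.37 times its level.

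Other endothelial clusters were low in Klf2 in run B. Capillary-like cluster 23, led by Apln and Prnd, which are genes of sprouting endothelium, had 170.7 to 275.7 CPM of Klf2 and 65.6 to 76.0 CPM of Klf4 in run B. The 3 endothelial clusters named next have no class name. Cluster 26, led by the proliferation genes Mki67 and Top2a, had 90.9 to 209.5 CPM of Klf2 in run B. Clusters 23 and 26 had no run A library with 20 cells or more. Cluster 22, led by Marco and the hyaluronan receptor gene Stab2, had 51.8 CPM of Klf2 and 75.3 CPM of Klf4 in mesentery on chow of run B, and 1752.8 and 764.4 CPM in that of run A, from 212 and 62 cells. Cluster 24, led by Coch and carrying Ccl20, had 39.2 CPM of Klf2 and 13.9 CPM of Klf4 in mesentery on chow of run B, and 962.1 and 486.0 CPM in that of run A, from 186 and 43 cells. The low levels of these clusters were thus seen in run B.

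Venous-like cluster 7, led by Adgrg6, Selp and Nkx2-3, differed by diet in mesentery. Its Klf2 level was 712.8 CPM on chow and 2454.2 CPM on high fat diet in run A, and 697.1 and 1557.8 CPM in run B. Its Klf4 level was 488.9 and 1496.8 CPM in run A and 241.3 and 576.0 CPM in run B. Both genes were thus higher on high fat diet in both runs. The cluster was singled out after its values had been seen, and this difference was not tested. The cluster held 474 and 552 cells of mesentery on chow and 40 and 81 cells on high fat diet.

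**Figure D3:**
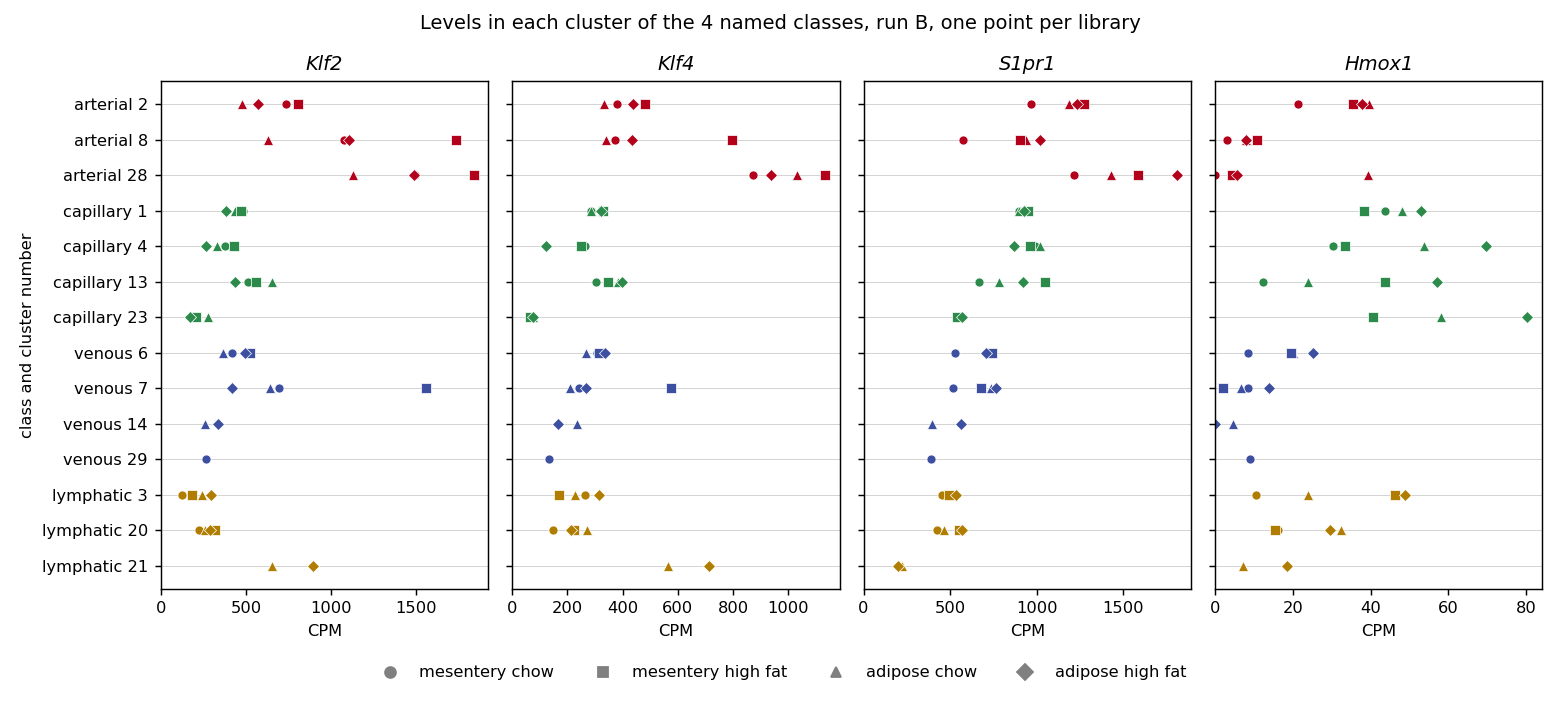
CPM of Klf2, Klf4, S1pr1 and Hmox1 in the 14 clusters of the 4 named endothelial classes, run B only, one point per library with at least 20 cells of the cluster, with the group given by the shape and the class by the colour. Arterial cluster 28 has 1127.9 to 1838.2 CPM of Klf2, and lymphatic cluster 21 has 198.8 to 220.3 CPM of S1pr1.

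Klf2 and Klf4 were also found in the same cells. To compare shares of cells, each cell was thinned at random to 1000 UMIs, and shallower cells were left out, 92 arterial-like cells in run A and 117 in run B. Klf2 was then detected in 73.6 to 89.8% of arterial-like cells in run A and 40.0 to 55.9% in run B, against 85.1 to 98.3% and 72.8 to 85.9% without thinning. Among arterial-like cells with a Klf4 UMI it was detected in 83.5 to 90.2% in run A and 43.5 to 64.3% in run B. Among those without, it was detected in 62.8 to 88.5% and 37.6 to 51.9%. The share was higher in cells with Klf4 in every library compared. In run A the share with Klf2 also went with Fos, an immediate early gene, at 81.0 to 95.2% of cells with a Fos UMI and 61.9 to 82.2% of those without, higher with Fos in 4 of 4 libraries. For Klf4 these shares were 57.0 to 82.5% and 44.4 to 69.9%, also higher with Fos in 4 of 4. Detection of Klf2 and Klf4 together within cells of like Fos, or within single clusters, was not computed.

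Klf2 was not limited to endothelium. T cell-like and B cell-like cells, in which Klf2 is known to maintain quiescence and to raise S1pr1, had 258 to 424 CPM of Klf2 in run B and 1107 to 4774 CPM in run A. Klf4 in these cells was 0 to 20.4 CPM in run B and 72.6 to 489.4 CPM in run A. Klf4 was not limited to endothelium either. In the 2 libraries of adipose on chow, fibroblast-like cells had 384.0 and 1574.2 CPM and mural-like cells 46.1 and 1828.4 CPM. Arterial-like cells had 355.8 and 1316.3 CPM there. In the other groups, the mean Klf4 level of fibroblast-like and mural-like cells, where measured, was below the arterial-like mean.

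Among the 4 endothelial classes, S1pr1 was lowest in lymphatic-like cells. Its arterial-like level was 491.6 CPM in mesentery on chow, 584.7 in mesentery on high fat diet, 520.9 in adipose on chow and 545.7 in adipose on high fat diet in run A, and 737.9, 1233.2, 1136.6 and 1231.6 CPM in run B. Capillary-like cells had 271.8 to 623.5 CPM in run A and 878.3 to 976.7 CPM in run B. Arterial-like cells exceeded them in 6 of 8 libraries (median 1.26-fold), so these 2 classes were not separated. Venous-like cells were below arterial-like cells in 7 of 8 libraries.

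Lymphatic-like cells had 174.6 to 304.2 CPM of S1pr1 in run A and 424.7 to 485.1 CPM in run B. They were lower than arterial-like, capillary-like and venous-like cells in 8 of 8 libraries, and the arterial-like level was a median of 2.56-fold higher. Fibroblast-like and mural-like cells had 0 to 45.2 CPM. After thinning, 50.4 to 65.1% of arterial-like cells of run B held an S1pr1 UMI and 0.0% of mural-like cells did, at median depths before thinning of 3552 to 4645 and 5460 to 8258 UMIs.

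Klf6 and Klf10 differed less between the endothelial classes. Klf6 in arterial-like cells was 426.8, 800.8, 562.9 and 1039.5 CPM in run A, in mesentery on chow, mesentery on high fat diet, adipose on chow and adipose on high fat diet, and 202.3, 295.5, 295.4 and 237.1 CPM in run B. Venous-like cells had 319.1 to 690.6 CPM in run A and 149.6 to 185.0 in run B. They were below lymphatic-like cells in 8 of 8 libraries and below arterial-like and capillary-like cells in 7 of 8 each. The exception was mesentery on chow in run A, with 501.6 CPM in venous-like and 461.0 CPM in capillary-like cells. The arterial-like, capillary-like and lymphatic-like levels did not keep an order, with 4 of 8 libraries on either side between neighbours. Klf10, which TGF-beta is known to induce, was 113.6 to 268.5 CPM in arterial-like cells of run A and 91.7 to 149.6 CPM in run B. Ordered by mean log2 level (arterial-like, lymphatic-like, capillary-like, venous-like), each class exceeded the next in 2 to 4 of 8 libraries, so Klf10 had no class order.

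Nqo1 had the clearest class order of the 2 NRF2 targets. In lymphatic-like cells it was 119.9 CPM in mesentery on chow, 56.9 in mesentery on high fat diet, 118.7 in adipose on chow and 66.8 in adipose on high fat diet in run A, and 123.0, 83.2, 183.4 and 113.7 CPM in run B. Venous-like cells had 28.6 to 70.7 CPM in run A and 50.7 to 71.2 in run B. Lymphatic-like cells were higher than venous-like cells in 8 of 8 libraries, by a median of 1.89-fold. Arterial-like cells, with 8.4 to 24.0 CPM, were lower than venous-like cells in 8 of 8, at 0.22 times their level.

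Capillary-like cells had 6.1 to 16.8 CPM of Nqo1 in run B. In run A, 3 of 4 libraries had 0 UMIs, at which levels of up to 22.0, 23.4 and 31.2 CPM are possible (3 counts of the total), and the fourth had 2 UMIs. Nqo1 in lymphatic-like cells was lower on high fat diet than on chow in both tissues and both runs. This class was not among those tested for diet.

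Hmox1 was low in venous-like and arterial-like endothelium and higher in capillary-like and lymphatic-like cells. Lymphatic-like cells had 24.0, 46.1, 60.5 and 44.5 CPM in run A, in mesentery on chow, mesentery on high fat diet, adipose on chow and adipose on high fat diet, and 12.8, 34.7, 22.2 and 39.5 CPM in run B. They exceeded venous-like cells in 8 of 8 libraries (median 2.26-fold), and capillary-like cells did so in 7 of 8 (2.9-fold). Arterial-like cells were below capillary-like and lymphatic-like cells in 7 of 8 libraries each. Macrophage-like cells, which clear haem from old red cells, had 92.3 CPM in mesentery on chow, 253.2 in mesentery on high fat diet, 262.5 in adipose on chow and 320.4 in adipose on high fat diet in run B, from 34, 115, 21 and 500 cells.

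The title of the series asks about endothelial heterogeneity in arteries under an obesogenic diet, so the diet and tissue comparisons were tested in arterial-like cells and in all endothelial cells. Counts were summed per library and tested with edgeR's quasi-likelihood test over all genes. Run letters pair the libraries, because the labels describe the runs as repeats, so a fit that holds the run constant (the replicate block) is given beside the plain fit. Without the block, edgeR called 0 genes (0% of those tested) in each of the 10 comparisons at a Benjamini-Hochberg adjusted p under 0.05, and so 0 of the 7 genes. In arterial-like cells 31 to 249 of 10376 genes had an unadjusted p under 0.05 in this fit, and in all endothelial cells 78 to 467 of 13676.

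Hmox1 was the 1 gene of the 7 that passed the test for diet, in arterial-like cells of the mesentery and with the run as a block. Its level was 6.5 CPM on chow and 11.1 CPM on high fat diet in run A, from 5 and 4 UMIs, and 8.8 and 29.2 CPM in run B, from 27 and 97 UMIs. It was higher on high fat diet in both runs. The log2 change was 1.5 ± 0.38 (SE, n = 2 libraries per diet) and the edgeR adjusted p 0.043. Without the block it was 1.42 ± 0.60 and the adjusted p 0.999. The blocked fit called 281 of the 10376 genes in this comparison, 2.71%, of which 116 were higher and 165 lower on high fat diet.

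In adipose, the arterial-like Hmox1 level was 16.8 CPM on chow and 10.4 on high fat diet in run A and 32.2 CPM on both diets in run B. The interaction of tissue and diet, which tests whether the diet change differs between the tissues, was 1.53 ± 0.51 with an unadjusted edgeR p of 0.00764 and an adjusted p of 0.757. A difference between the tissues in the diet change was therefore not called, and the blocked fit called 0 genes for the interaction.

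On chow, Hmox1 was lower in arterial-like cells of mesentery, at 6.5 and 8.8 CPM, than of adipose, at 16.8 and 32.2 CPM. The log2 difference, mesentery minus adipose, was -1.69 ± 0.38 under the block (edgeR adjusted p 0.0154) and -1.65 ± 0.60 without it (adjusted p 1). The block called 317 genes here, 3.06%. The diet and the tissue comparison share the libraries of mesentery on chow.

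The makeup of the class differed along with both Hmox1 results, and both calls were lost when single libraries were left out. Cluster 8, in which Hmox1 was 3.0 to 13.8 CPM, held 74.3% of the arterial-like cells of chow mesentery in run A and 59.6% in run B. By run, it held 40.8% and 15.3% in mesentery on high fat diet, 36.1% and 25.3% in adipose on chow, and 28.7% and 16.6% in adipose on high fat diet. In cluster 2 alone, Hmox1 was 20.4 and 17.1 CPM on chow and high fat diet in mesentery of run A and 21.4 and 35.5 CPM in run B. The blocked log2 change there was 0.64 ± 0.43 (edgeR adjusted p 1), and the tissue difference on chow was -0.79 ± 0.42, also with an adjusted p of 1. In cluster 8 alone, Hmox1 was 3.0 and 6.1 CPM on chow and high fat diet in mesentery of run A and 3.2 and 10.9 CPM in run B. Adipose on chow had 13.8 and 8.0 CPM there. These levels rest on few UMIs, but both differences had the direction seen in the class. The part of the makeup was not tested. The fits that follow are again of the whole class. Without mesentery on chow B the diet change was 0.82 (adjusted p 0.813), and without the run B library of high fat mesentery it was 1.16 (0.853). Adipose libraries counted too: leaving out the chow library of run A gave an adjusted p of 0.0506, that of run B 0.109, and the high fat library of run B 0.0646. A group left with 1 library in such a fit is assumed to vary like the others. The tissue difference was -0.99 (adjusted p 0.721) without mesentery on chow B and -1.90 (0.686) without adipose on chow B, and DESeq2 with the block gave -1.66 with an adjusted p of 0.20.

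Markers of other cells moved too. The summed level of the 7 macrophage markers in arterial-like cells was 2.6 and 5.9 CPM in mesentery on chow, 8.3 and 33.4 in mesentery on high fat diet, 2.8 and 7.7 in adipose on chow, and 41.4 and 88.4 in adipose on high fat diet, in runs A and B. That of the 8 capillary markers was 245.2 and 1794.9, 626.2 and 4614.9, 588.1 and 5225.9, and 1181.1 and 5566.0 CPM. Adipocyte markers summed to 2.6 and 429.3, 0.0 and 104.7, 19.6 and 1858.8, and 10.4 and 53.1 CPM in the same order. Those of erythroid cells summed to 0.0 and 48.5, 22.2 and 206.4, 16.8 and 962.2, and 41.4 and 3758.1 CPM, and those of lymphatic endothelium to 76.5 and 63.7, 194.0 and 53.9, 168.0 and 62.3, and 1277.8 and 48.9 CPM. Erythroid, macrophage and capillary markers were thus higher on high fat diet in both tissues and runs. Hmox1 was higher on that diet in mesentery in both runs, and in adipose it was not. The part of these markers in the Hmox1 results was not tested.

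Klf2 did not pass the test for diet in arteries. Its log2 change in mesentery was 0.00 ± 0.21 under the block and 0.00 ± 1.09 without it, where the error takes in the difference between the runs. Klf4 changed by 0.25 ± 0.19 with an edgeR adjusted p of 0.817 and Klf6 by 0.65 ± 0.24 with one of 0.229, both with the block. Klf10, S1pr1 and Nqo1 did not pass either. S1pr1 was 491.6 CPM on chow and 584.7 CPM on high fat diet in run A and 737.9 and 1233.2 CPM in run B, with an edgeR adjusted p of 0.515.

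On chow, Klf2 in arterial-like cells was higher in mesentery than in adipose in both runs, by 3128.9 against 2921.1 CPM and 995.2 against 532.3 CPM. Within cluster 2 the levels were 2629.8 against 2531.5 CPM in run A and 737.5 against 477.4 CPM in run B. In cluster 8 they were 3230.8 against 3414.3 CPM, lower in mesentery, and 1078.9 against 630.2 CPM. Cluster 8 was a larger part of the class in mesentery on chow, as given above, and its part in the difference was not tested. Over the whole class the blocked log2 difference was 0.55 ± 0.22 (edgeR adjusted p 0.265). It passed the test when mesentery on chow A was left out (0.75, edgeR adjusted p 0.0408, with 4.89% of genes called) or adipose on chow A was left out (0.91, 0.0462, with 2.5% called). Of the 7 genes, 0 passed for diet in adipose, where the block called 27 genes (0.26%), and 0 for tissue on high fat diet, where it called 12 (0.116%).

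**Figure D4:**
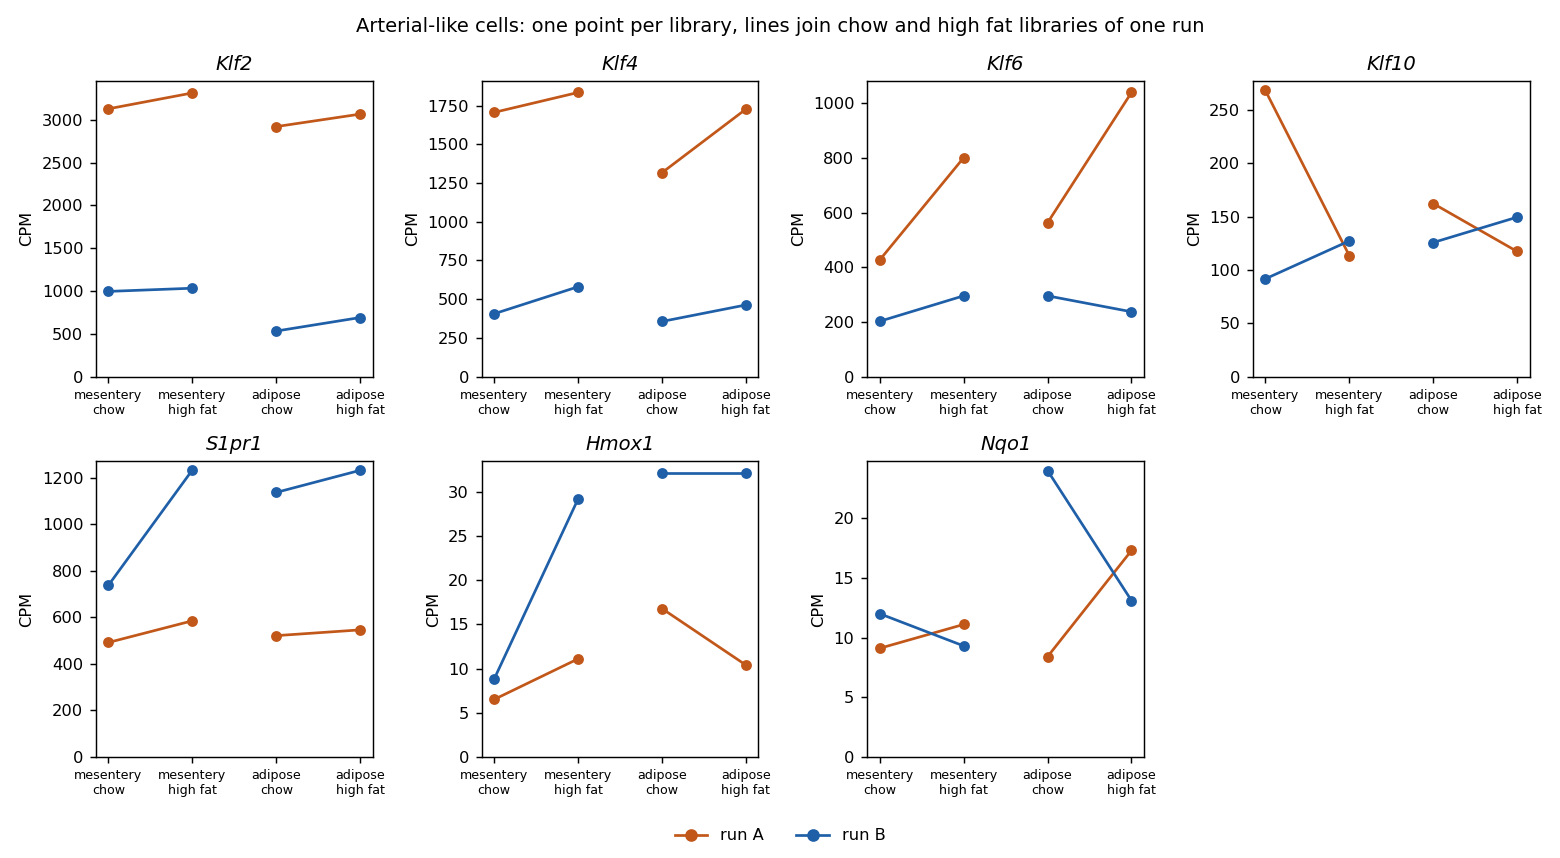
CPM of the 7 genes in arterial-like cells, one point per library, with lines that join the chow and the high fat diet library of one run and tissue. Hmox1 is higher on high fat diet in mesentery in both runs (6.5 to 11.1 and 8.8 to 29.2 CPM), and the gap between the runs is wider than the diet difference for Klf2 and Klf4.

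Over all endothelial cells, Klf2 and Klf4 were higher on high fat diet in every pair of libraries. In mesentery, Klf2 was 1315.1 and 2722.7 CPM on chow and high fat diet in run A and 445.7 and 585.5 CPM in run B. In adipose it was 1317.1 and 2353.0 CPM in run A and 346.2 and 435.1 CPM in run B. Klf4 was 836.5 and 1632.1 CPM and 228.0 and 342.0 CPM in mesentery, and 1012.8 and 1306.4 CPM and 244.4 and 316.7 CPM in adipose. The log2 change in mesentery with the block was 0.68 ± 0.21 for Klf2 (edgeR adjusted p 0.374) and 0.75 ± 0.15 for Klf4 (0.184), and neither passed. Without the block the adjusted p was 1 for both.

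DESeq2 with the block, an alternative test, called Klf4 in this comparison with a log2 change of 0.77 and an adjusted p of 2.9e-05. It also called Hmox1, with 1.08 and 0.022. The test called 2.06% of the genes with an adjusted p in this comparison. A sum over all endothelial cells also moves with the shares of the classes, so a change in the cells' makeup and a change within cells cannot be told apart in it. In mesentery, markers of lymphatic endothelium summed to 5398.2 CPM on chow and 17467.0 CPM on high fat diet in run A and to 3158.9 and 2395.5 CPM in run B. Those of venous endothelium went from 4446.9 to 1584.9 CPM and from 1608.4 to 810.4 CPM. B cell markers went from 76.5 to 1339.0 CPM and from 55.6 to 13.3 CPM, and adipocyte markers from 9.9 to 1.6 CPM and from 3722.8 to 156.1 CPM. In adipose, adipocyte markers went from 34.1 to 20.6 CPM and from 5862.0 to 67.2 CPM. Their part in the levels of Klf2 and Klf4 was not tested.

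Hmox1 over all endothelial cells was 12.8 and 34.6 CPM on chow and high fat diet in mesentery of run A and 18.5 and 31.7 CPM in run B. Its blocked log2 change was 1.06 ± 0.23 (edgeR adjusted p 0.191). On chow it was lower in mesentery than in adipose, which had 32.3 and 42.1 CPM, with a log2 difference of -1.21 ± 0.22 and an adjusted p of 0.11. DESeq2 with the block called this difference (-1.24, adjusted p 0.0029), with 2.99% of all genes called, as did edgeR with the block over the named classes alone (-1.40, 0.0238), with 0.876% called. Nqo1 went from 60.7 to 40.1 CPM and from 31.8 to 17.7 CPM in mesentery, a blocked log2 change of -0.75 ± 0.18 (edgeR adjusted p 0.23). In all, the blocked edgeR fit called 5 genes (0.0366%) between the diets of mesentery, 7 (0.0512%) between those of adipose and 2 (0.0146%) between the tissues on chow, none of them among the 7 genes. It called 0 between the tissues on the high fat diet and 0 for the interaction.

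Genes around KLF2 and KLF4 in the pathway were examined in arterial-like cells, in lists of textbook genes chosen with earlier results of these data known. Their tests are all from edgeR with the block. Of the 9 tested genes that KLF2 or KLF4 are known to raise, 1 rose and 4 fell on high fat diet in mesentery, against 2.71% of all genes called. The median log2 change of the list was -0.12 and that of all genes -0.01.

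Nos3, the endothelial nitric oxide synthase, fell by 0.89 ± 0.20 on the log2 scale (edgeR adjusted p 0.0221). Its level was 337.3 CPM on chow and 202.3 CPM on high fat diet in run A and 179.2 and 95.7 CPM in run B. Ass1, which makes the precursor of arginine and so supplies nitric oxide synthesis, fell by 1.11 ± 0.25 (adjusted p 0.0228), from 172.5 to 83.1 CPM and from 117.1 to 54.2 CPM. The water channel gene Aqp1 rose, by 1.40 ± 0.33 (adjusted p 0.0272), from 10.4 to 55.4 CPM and from 53.7 to 122.5 CPM. Each of the 3 moved the same way in both runs. Without the run B library of high fat mesentery, 0 of the pathway genes named here as called for diet in mesentery passed, so their calls depended on it.

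The cytochrome gene Cyp1b1 fell by 2.54 ± 0.45 (adjusted p 0.00429), from 36.3 to 13.9 CPM and from 39.7 to 5.1 CPM. Cyp1a1, also called, was found in run B chow libraries, with 150 UMIs in mesentery and 150 in adipose, against 1 UMI in mesentery and 0 in adipose on high fat diet and 0 in the 4 libraries of run A. Cyp1a1 was the 1 gene of these lists called for diet in adipose.

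Of the 6 tested genes that KLF2 or KLF4 are known to lower, 0 rose and 2 fell on high fat diet in mesentery, and the list's median was -0.73. Vcam1, an adhesion molecule for leukocytes, fell by 1.43 ± 0.23 (edgeR adjusted p 0.0017), from 1384.1 to 631.8 CPM in run A and from 532.4 to 178.2 CPM in run B. Icam1, another, fell by 1.37 ± 0.26 (adjusted p 0.00624), from 992.4 to 324.2 CPM and from 93.3 to 49.7 CPM. Genes of the raised list and genes of the lowered list thus both fell.

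The makeup of the class moved with these genes as well. Nos3 was 365.5 and 260.5 CPM on chow and high fat diet in cluster 8 of run A and 242.7 and 204.3 CPM in run B. In cluster 2 it was 173.3 and 154.1 CPM in run A and 69.2 and 70.9 CPM in run B. Vcam1 in cluster 8 was 1586.6 and 872.3 CPM in run A and 828.8 and 665.5 CPM in run B, and in cluster 2 it was 193.7 and 479.4 CPM and 57.0 and 87.1 CPM, higher on high fat diet in both runs. The blocked log2 change of Nos3 was 0.00 ± 0.27 in cluster 2 and -0.43 ± 0.23 in cluster 8 (edgeR adjusted p 1 and 0.926). That of Vcam1 was 0.90 ± 0.27 in cluster 2 and -0.65 ± 0.26 in cluster 8 (0.254 and 0.622). Neither gene was thus called within a cluster, and Vcam1 in cluster 2 had the opposite sign to the class. Of the others, Aqp1 was 0.34 ± 0.34 and 1.13 ± 0.61, Ass1 -0.42 ± 0.36 and -0.28 ± 0.28, and Icam1 -0.38 ± 0.26 and -1.20 ± 0.33, with 0 of them called. Cluster 8, which had more Nos3 and Vcam1 than cluster 2, was a smaller part of the class on high fat diet, as given above. The part of the makeup in these changes was not tested.

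**Figure D5:**
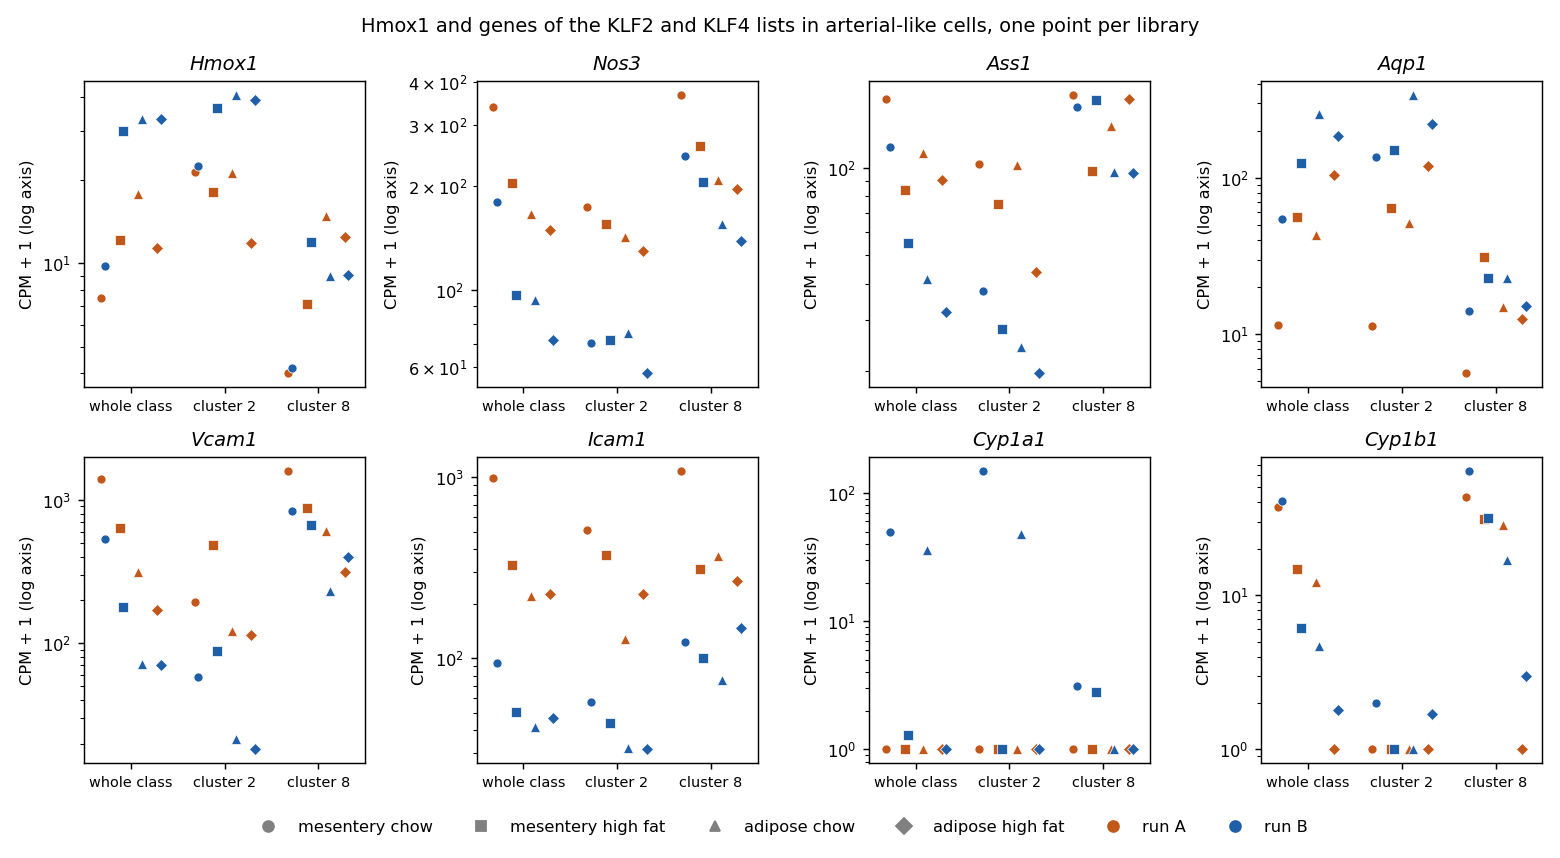
CPM + 1 on a log axis for Hmox1 and 7 genes of the KLF2 and KLF4 lists in mesentery and adipose libraries, over the whole arterial-like class and in its clusters 2 and 8, one point per library with the group given by the shape and the run by the colour. Points at 1 are libraries with 0 UMIs; Vcam1 and Nos3 are higher in cluster 8 than in cluster 2 within each run.

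Between the tissues on chow, the same lists differed the other way. In mesentery against adipose 3 of the 9 tested genes of the raised list were higher and 1 lower, and 2 of the 6 of the lowered list were higher, against 3.06% of all genes called. Nos3 was higher by 1.04, Ass1 by 1.23 and Cyp1b1 by 3.00 on the log2 scale, Aqp1 was lower (-2.11), and Vcam1 and Icam1 were higher by 2.62 and 1.79. Icam1 was also called within cluster 2 (1.26, edgeR adjusted p 0.0211), where 0.441% of genes were called. Within cluster 8, where 2.31% were, Icam1 (1.28, 0.0272) and Vcam1 (1.70, 0.000404) were called. Nos3 was 0.00 ± 0.27 in cluster 2 and 0.79 ± 0.23 in cluster 8, not called in either. Without adipose on chow B, Vcam1 remained the 1 called gene of those named here. On high fat diet, Vcam1 was the 1 gene of the lists called between the tissues, at 1.56. These comparisons share libraries with the diet comparisons.

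Of 13 genes of flow sensing and the MEK5, ERK5 and MEF2 route, 1 was called for diet in mesentery. Plxnd1, a guidance receptor that also acts as a flow sensor, fell by 0.80 (adjusted p 0.0458), from 237.4 to 141.3 CPM and from 223.7 to 133.9 CPM. Among 6 immediate targets of TGF-beta and BMP signalling 1 was called, the inhibitory Smad gene Smad6, which fell by 1.06 (adjusted p 0.0272), from 144.0 to 47.1 CPM and from 88.1 to 54.2 CPM. On chow, Smad6 and Skil were higher in mesentery than in adipose, by 1.35 and 1.24.

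In the remaining lists edgeR called 0 genes for diet in mesentery. This held for 8 tested genes of the other KLF family members, of which Klf11 had the smallest p (log2 change 1.07 ± 0.38, adjusted p 0.22) and Klf7 the next (-0.28 ± 0.21, 0.794). Of 7 genes of the sphingosine-1-phosphate axis, Plpp3 (0.26 ± 0.23, 0.862) and Spns2 (0.28 ± 0.28, 0.883) came first. Of 17 genes of NRF2 and its targets, the ferritin gene Fth1 (-0.71 ± 0.19, 0.0539) and the NRF2 inhibitor gene Keap1 (0.68 ± 0.25, 0.256) came first, so the called change of Hmox1 was not shared by a called change of another gene of that list. Of the 16 immediate early and heat shock genes, Nr4a1 (-1.05 ± 0.41, 0.284) and Ier3 (-0.48 ± 0.22, 0.441) had the smallest p.

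For each of the 7 genes, the genes with the most similar pattern were found over 32 profiles, the 4 endothelial classes in the 8 libraries, with the library's mean removed. The measure is Pearson's r over the 32 profiles, computed against the 3416 genes at 50 CPM or more. It is given as a description, because the profiles share libraries and cells. Hmox1 and Nqo1 themselves lie under that level. Klf2 was most like Nr4a2 (0.87), an orphan nuclear receptor gene that is itself an immediate early gene, Klf4 (0.87) and Lap3 (0.76). Klf4 was most like Klf2 (0.87), Nr4a2 (0.80) and Crip2 (0.69). S1pr1 was most like Ralgapa1 (0.90), Pik3c2a (0.90) and Tagln2 (0.89), and Nqo1 most like Serping1 (0.92), S100a10 (0.92) and Grina (0.91).

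Klf6 was most like Ndufa7 (0.85), Ndufs5 (0.84) and Gpx4 (0.81), and Hmox1 like Hras (0.89), Arpc5 (0.86) and Cox6b1 (0.85). Klf10 was most like Hnrnpdl (0.76), Ascc3 (0.66) and Neat1 (0.65). Among the 7 genes themselves, after Klf2 with Klf4, the strongest likeness was between Klf6 and Hmox1 (0.64), and the most opposed pair was S1pr1 and Nqo1 (-0.57).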

How the data were processed

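The authors deposited raw UMI counts per gene and barcode, not normalised. Per the file headers, software version 3.0.2 wrote the matrices of run A and 5.0.0 those of run B; build mm10 and Seurat 4.3.0 are named in the submitters' processing notes. Counts of the 30406 shared gene identifiers were used. Cells with at least 500 UMIs, 300 genes and at most 10% mitochondrial counts were kept, 23970 of 27944 barcodes. Scrublet on its own marked 35 cells as doublets. Its cut-off was therefore chosen after seeing the scores, at 0.8% per 1000 barcodes, which removed 979 cells (4.08%).

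Cells were clustered in scanpy 1.11.5 with leidenalg 0.10.2 (2000 variable genes, 30 principal components, 20 neighbours, resolution 1.0, runs aligned), and clusters were named from marker lists. Classes with under 20 cells in a library were left out of it. These names are not the study's own and may differ from them. Library sums were tested with edgeR 4.0.16 (R 4.3.3, limma 3.58.1) over 4 group means; the scripts were tested on simulated data. DESeq2 1.42.0, no filter on low counts, other cluster settings and leaving out each library were alternatives. Values after ± are standard errors from the edgeR fit, which take in the spread between libraries. The upper levels given for libraries without a UMI cover counting error only. The labels call the runs repeats, so run letters pair the libraries; the run deviations of the groups correlated at 0.54 to 0.70 (all endothelial cells) and 0.50 to 0.63 (arterial-like). P-values measure the spread between pools. Named genes are the 7, the called genes of each pathway list (at most 4 by p) or else the 2 with the smallest p at 20 CPM or more, and the 3 most similar genes. The 7 genes and the lists were chosen with earlier results of these data known.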

Additional observations from a re-analysis of the deposited data

How the results depend on the processing

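For the class orders of the 7 genes, 159 counts of libraries under other settings were close to those given and 9 were not. The 9 concern Klf10, Hmox1 and S1pr1. With cells thinned to 1000 UMIs, Klf10 was higher in arterial-like than in venous-like cells in 7 of 8 libraries and Hmox1 higher in arterial-like than in lymphatic-like cells in 4 of 8. edgeR without the run block gave 0 calls throughout, so each value below is a count that an alternative raised. In all endothelial cells the replicate block gave 5, 7 and 2 genes for diet in mesentery, diet in adipose and tissue on chow. DESeq2 gave 4, 2, 67 and, for tissue on high fat diet, 5. DESeq2 with the block gave 243, 20, 401, 13 and, for the interaction, 24, with 2 and 1 of the 7 genes for diet in mesentery and tissue on chow. The named classes alone with the block gave 86, 1, 113 and 1, with 1 of the 7 genes for tissue on chow. In arterial-like cells the block gave 281, 27, 317 and 12, with 1 of the 7 genes in the first and 1 in the third. DESeq2 with the block gave 123, 3, 169 and 9, no filter on low counts 68, 20, 102, 23 and, for the interaction, 5. The largest cluster alone with the block gave 24, 30, 34 and 9 and the second largest 32, 1, 170 and 29.

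Klf4 for diet in mesentery was -0.03 in the second largest arterial-like cluster alone. Hmox1 for diet in mesentery could not be fitted in the second largest cluster alone.

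Leaving out 1 library, over both fits, called 0 to 108, 0 to 21, 0 to 214 and 0 to 4 genes in all endothelial cells, and 0 to 479, 0 to 105, 0 to 563, 0 to 42 and, for the interaction, 0 to 65 in arterial-like cells, with 0 to 1 of the 7 genes for diet in mesentery and 0 to 2 for tissue on chow. With the block, diet in mesentery fell to 9 genes without the run B library of high fat mesentery, and tissue on chow to 4 without adipose on chow B. The log2 changes in all endothelial cells for diet in mesentery spanned -0.68 to 1.96 for Klf2 and -0.74 to 2.18 for Klf4. In arterial-like cells they spanned -1.05 to 1.63 for Klf4 and -0.25 to 1.48 for Klf6, and -0.87 to 2.16 for Klf2 between tissues on chow; the reversals came without the block, where a left-out library leaves the runs unbalanced. Depth limits Hmox1 and Nqo1 most.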
